A study of Mus musculus with 6 samples.

Results

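The gene segments of the T cell receptor loci were examined in OT-I CD8+ T cells, which carry a transgenic receptor for a peptide of ovalbumin. Members were the rows of the count table whose mouse gene symbol marks a V, D, J, or C segment of the Tra, Trb, Trd, or Trg locus, and 270 of the 57126 rows met this rule. All 6 samples were CD8+ T cells isolated from lymph nodes and spleens of OT-I transgenic mice with magnetic columns, stimulated ex vivo with nanoparticle artificial antigen-presenting cells (nano-aAPCs) and harvested on day 6. Interleukin-2 (IL-2) was the only cytokine of the 3 effector (TEff) samples, while the 3 tissue-resident memory-like (TRM-like) samples also received TGF-β and IL-15. The age and strain background of the donor mice for these libraries, and any block on rearrangement of their own receptor genes, are not given in the sources used here. Nothing in the labels says whether the replicates came from separate mice or cultures, so p-values measure the spread between these samples, which may be technical. Cells of a single receptor, expanded in culture, also limit both groups as a model of resident T cells in tissue.

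Each αβ T cell assembles its receptor from separate pieces of DNA. In the thymus the Rag1 and Rag2 recombinase joins 1 V segment to 1 J segment in the α locus, and a V, a D, and a J segment in the β locus, and splicing then links the joined exon to a constant (C) segment. The V segment supplies most of the outer domain that contacts peptide and MHC, the junction with D and J forms the most variable loop, and the C segment holds the domain near the membrane and the membrane anchor. The γ and δ loci are built the same way and encode the receptor of γδ T cells, and the δ locus lies within the α locus. The OT-I receptor pairs a V segment of the Trav14 family (Vα2 in the older naming) with Trbv12-1 (Vβ5).

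Of the 270 rows, 226 were annotated as functional segments and 44 as pseudogenes. The Tra locus held 191 rows (130 V, 60 J, and 1 C) on chr14:52665385-54461663, and the Trb locus held 53 (35 V, 2 D, 14 J, and 2 C) on chr6:40868163-41535386, both in GRCm39. The Trd locus held 11 rows and the Trg locus 15. No count fell on 19 rows in any sample, 216 rows had at least 1 count in at least 3 samples and were tested, and the other 35 had too few counts. At least 10 counts were present in every sample for 111 rows.

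The sequences below are the coding V exons on which the transgenic share is counted, read from GRCm39. The first set shows why the counts of single Trav14 rows are uncertain: over the 276 bases shown, capitals mark bases that differ from Trav14d-1 (chr14:53093344-53093619, plus strand), and Trav14d-3-dv8 (chr14:53316223-53316498, plus strand) had 11 such bases and Trav14d-2 (chr14:53186347-53186622, plus strand) had 9.
Trav14d-1: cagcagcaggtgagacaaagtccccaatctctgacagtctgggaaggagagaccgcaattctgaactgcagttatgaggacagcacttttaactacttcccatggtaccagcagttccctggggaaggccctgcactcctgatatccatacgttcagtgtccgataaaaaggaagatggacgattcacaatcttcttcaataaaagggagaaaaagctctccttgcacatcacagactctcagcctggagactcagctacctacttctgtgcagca
Trav14d-3-dv8: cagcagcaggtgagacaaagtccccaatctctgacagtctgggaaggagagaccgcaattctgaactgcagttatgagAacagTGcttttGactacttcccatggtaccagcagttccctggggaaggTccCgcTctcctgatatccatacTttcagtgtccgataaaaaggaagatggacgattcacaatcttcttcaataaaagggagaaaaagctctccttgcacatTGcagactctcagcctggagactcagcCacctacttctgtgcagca
Trav14d-2: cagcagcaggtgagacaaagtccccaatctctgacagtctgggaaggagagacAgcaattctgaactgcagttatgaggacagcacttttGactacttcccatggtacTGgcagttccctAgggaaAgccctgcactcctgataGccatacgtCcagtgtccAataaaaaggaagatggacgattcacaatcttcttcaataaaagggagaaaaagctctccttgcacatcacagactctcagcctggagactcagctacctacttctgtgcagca

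The Trav14 rows are near-identical copies. The exon of Trav14n-1 equaled that of Trav14d-1 at all 292 bases aligned, and the exon of Trav14n-2 equaled that of Trav14d-2 at all 276. The exons of the other Trav14 rows matched Trav14d-1 at 93.5% to 96.7% of aligned bases. How reads that map to several places were counted is not given in the sources used here, so the split among these rows is uncertain and the family sum is the more reliable value. The β segment Trbv12-1 is better separated, since its exon (chr6:41090709-41091001, plus strand) matched the neighboring Trbv12-2 (chr6:41096006-41096298, plus strand) at 261 of 293 bases. The pair is shown with the 32 differing bases of Trbv12-2 in capitals.
Trbv12-1: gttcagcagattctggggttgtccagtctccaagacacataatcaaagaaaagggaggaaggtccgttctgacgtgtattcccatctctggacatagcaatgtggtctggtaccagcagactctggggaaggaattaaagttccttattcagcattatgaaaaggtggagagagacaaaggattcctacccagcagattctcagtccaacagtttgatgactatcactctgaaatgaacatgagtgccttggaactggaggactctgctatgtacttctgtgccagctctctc
Trbv12-2: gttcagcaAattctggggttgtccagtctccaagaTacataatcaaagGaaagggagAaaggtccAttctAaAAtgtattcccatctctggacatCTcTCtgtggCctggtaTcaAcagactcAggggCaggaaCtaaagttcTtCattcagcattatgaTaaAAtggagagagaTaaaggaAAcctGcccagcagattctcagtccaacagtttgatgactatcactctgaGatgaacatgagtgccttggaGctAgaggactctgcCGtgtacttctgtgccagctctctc

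Sequencing depth was similar across samples, with total counts of 18319013 to 23622621. TRM-like replicates 1 and 2 stood apart in genes with no known role in T cells: they had at least 1 count on 788 and 851 of 1420 olfactory receptor rows, against 38 to 48 in the other 4 samples. TRM-like replicate 3 stood apart from the other TRM-like samples in the receptor loci themselves, as described below, and results are given with and without these samples where they change. The markers of CD8+ T cells were abundant, with all 8 above 10 counts in every sample. Of the 4 markers of CD4+ T cells, Cd4 had at most 2 counts and Cd40lg had 1 to 5. Foxp3 had 6 to 29 counts and Zbtb7b had 366 to 795. The CD4+ list summed to 35.9 to 41.5 CPM in TEff and 18.4 to 26.0 CPM in TRM-like. Of the 5 markers of thymocytes or recombining cells, Rag2 and Ptcra (the pre-T α chain) had 1 count or fewer in every sample and Rag1 had 6 or fewer, whereas Dntt had 6 to 40 counts and Cd1d1 had 190 to 449, and the list summed to 12.8 to 16.4 CPM in TEff and 9.13 to 20.2 CPM in TRM-like. Levels are given as CPM, which are counts scaled by edgeR's TMM library sizes. Differences are log2 fold changes of TRM-like over TEff from edgeR's quasi-likelihood test, and the threshold was a Benjamini-Hochberg adjusted p below 0.05 with an absolute log2 fold change above 0.58.

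The receptor segments took a small and similar part of each library. They held 0.426%, 0.465%, and 0.418% of all counts in TEff replicates 1, 2, and 3, and 0.495%, 0.533%, and 0.325% in TRM-like replicates 1, 2, and 3. The highest and the lowest share were thus both in TRM-like samples, and the groups overlapped. Of the member counts, the Trb locus held 73.0% to 78.5%, the Tra locus 16.8% to 18.5%, the Trd locus 3.03% to 4.88%, and the Trg locus 1.01% to 4.08%.

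**Figure D1:**
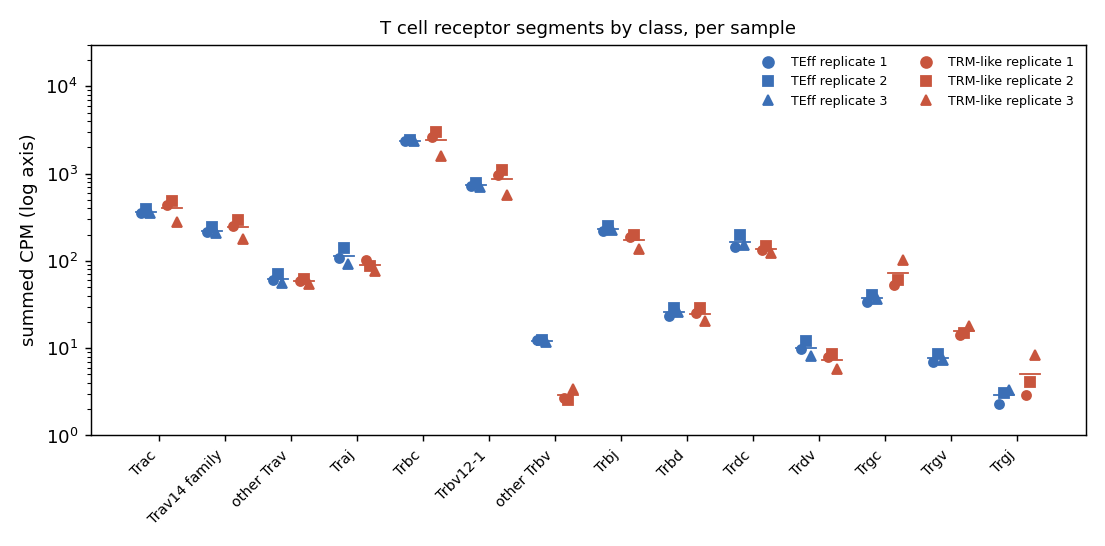
Summed level of each class of receptor segment in CPM (log axis) for every sample. Points are samples, and short lines are group means (n = 3). The Trbv segments other than Trbv12-1 sat lower in all 3 TRM-like samples, the Trgc and Trgv segments sat higher, and TRM-like replicate 3 was the lowest of all samples for Trac, Trbc, and Trbv12-1.

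The α and β locus totals did not differ between groups beyond the spread. The Tra total was 738, 846, and 710 CPM in TEff and 845, 935, and 587 CPM in TRM-like replicates 1, 2, and 3. The Trb total was 3333, 3485, and 3306 CPM in TEff and 3826, 4318, and 2317 CPM in TRM-like. In both loci TRM-like replicates 1 and 2 were at or near the top and TRM-like replicate 3 was the lowest of the 6. The log2 ratio of the group means was 0.05 for Tra and 0.05 for Trb, with p = 1 for each in the exact two-sided permutation test. With 3 against 3 samples this test cannot go below 0.10, and values were adjusted over the 16 quantities compared in this way. In bulk samples, fewer cells that carry a transcript and less RNA per cell cannot be told apart.

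The constant segments followed the same order. Trac, the α constant segment, had 7729, 7742, and 6422 counts in TEff and 9915, 11200, and 6055 in TRM-like replicates 1, 2, and 3 (log2 fold change 0.13 ± 0.20 SE; adjusted p = 0.834, edgeR). Trbc2 had 40130, 36776, and 32725 counts in TEff and 48705, 54005, and 26979 in TRM-like (log2 fold change 0.06 ± 0.23 SE; adjusted p = 0.941, edgeR), and Trbc1 gave -0.09 ± 0.20 (adjusted p = 0.884, edgeR). TRM-like replicate 3 was again below every other sample. Without TRM-like replicates 1 and 2, a choice made after seeing the data, its log2 fold changes against TEff were -0.60 for Trbc1 and -0.56 for Trbc2. The value for Trac was also negative and is given below. With 1 TRM-like sample left, the spread of that group cannot be estimated. In that split, 29.5% of all genes tested were lower than in every TEff sample.

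Per kilobase of exon, Trbc2 stood at 2613 to 2690 CPM per kb in TEff and at 3070, 3409, and 1798 CPM per kb in TRM-like replicates 1, 2, and 3. On the same scale Trac stood at 856 to 949 CPM per kb in TEff and 676 to 1185 in TRM-like. Trbc2 took 78.1%, 77.4%, and 77.6% of the Trbc counts in TEff and 80.4%, 79.0%, and 78.1% in TRM-like, so the groups were apart by a narrow margin (exact p = 0.10, adjusted p = 0.20). This split is uncertain, since reads within the first coding exons can hardly be told apart: these exons (chr6:41515152-41515526 and chr6:41523664-41524038, plus strand) were identical at 374 of 375 bases. The 61 bases around that difference are shown, with the differing base in capitals (C260A, counted from 1 at the start of the exon, Trbc1 first).
Trbc1: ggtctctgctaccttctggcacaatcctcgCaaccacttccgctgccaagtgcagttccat
Trbc2: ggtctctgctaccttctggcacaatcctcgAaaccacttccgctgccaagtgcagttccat

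The Trav14 family, the transgenic α segments, took most of the Trav counts in every sample. Its share was 78.0%, 77.3%, and 78.9% in TEff replicates 1, 2, and 3, and 80.9%, 82.5%, and 76.3% in TRM-like replicates 1, 2, and 3. The groups overlapped, since TRM-like replicate 3 lay below all 3 TEff samples and the other TRM-like samples lay above them. The Wilson 95% intervals of single samples were at most 1.20 percentage points to either side, from 4736 to 8225 Trav counts, and cover counting error only. The group means were 78.1% ± 0.8 and 79.9% ± 3.2 (SD, n = 3), a difference of 1.8 percentage points (exact p = 0.40, adjusted p = 0.58). Against all Tra counts, J and C segments included, the share was 28.5% to 29.3% in TEff and 29.7% to 31.7% in TRM-like, so the groups did not overlap on that scale.

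**Figure D2:**
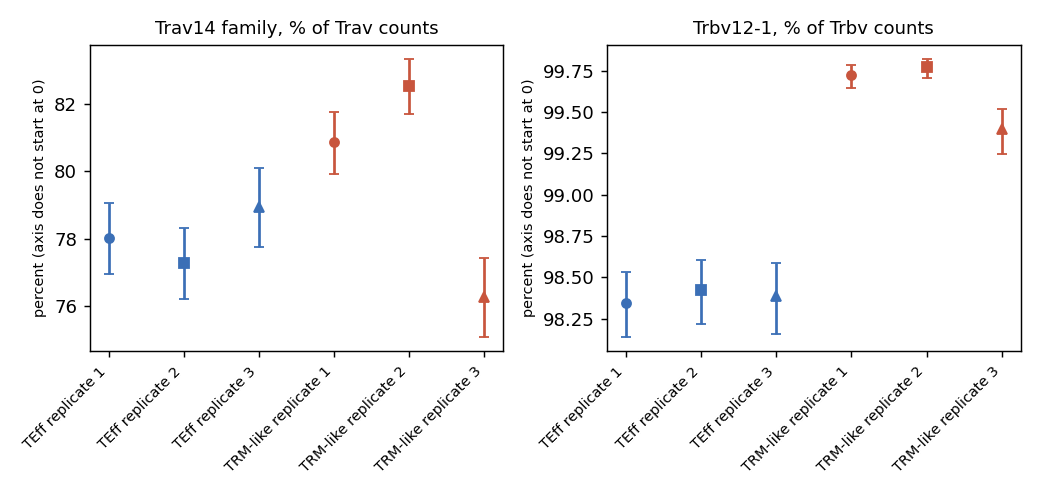
Share of Trav counts on the Trav14 family (left) and share of Trbv counts on Trbv12-1 (right), in percent, for every sample with its Wilson 95% interval. The Trav14 shares overlapped between groups, while the Trbv12-1 shares lay between 98.3% and 98.4% in TEff and between 99.4% and 99.8% in TRM-like. The axes do not start at 0.

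Within the family, the identical pair Trav14d-1 and Trav14n-1 carried most counts. Trav14d-1 had 1854, 1822, and 1415 counts in TEff and 2502, 2874, and 1842 in TRM-like replicates 1, 2, and 3. Trav14n-1 had 1933, 1964, and 1536 counts in TEff and 2368, 2883, and 1569 in TRM-like. Trav14n-1 had more counts than Trav14d-1 in the 3 TEff samples and fewer in TRM-like replicates 1 and 3, and neither row passed the threshold (adjusted p = 0.418 and 0.796, edgeR). Trav14n-2 had 187 to 221 counts in each sample, Trav14-1 had 81 to 151, Trav14d-2 had 44 to 65, Trav14-3 had 15 to 43, and Trav14n-3 had at most 3.

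Trav14d-3-dv8, a segment that can join either the α or the δ locus, stood apart in a single library. It had 533, 574, and 431 counts in TEff, 429 and 553 in TRM-like replicates 1 and 2, and 14 in TRM-like replicate 3. Its share of the Trav14 counts was 11.6% ± 0.4 (SD, n = 3) in TEff, 7.46% and 8.15% in TRM-like replicates 1 and 2, and 0.366% (Wilson 95% interval 0.218% to 0.613%) in TRM-like replicate 3. The groups did not overlap (exact p = 0.10, adjusted p = 0.20), and the value of TRM-like replicate 3 stood far below the other 5. Across the group, the level was 25.7 ± 2.9 CPM in TEff and 14.5 ± 12.3 CPM in TRM-like (SD, n = 3), and the row did not pass the threshold (log2 fold change -0.83 ± 0.78 SE; adjusted p = 0.691, edgeR). Without this row, the Trav14 share was 75.0% to 76.8% in TEff and 79.6%, 81.3%, and 76.2% in TRM-like replicates 1, 2, and 3.

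**Figure D3:**
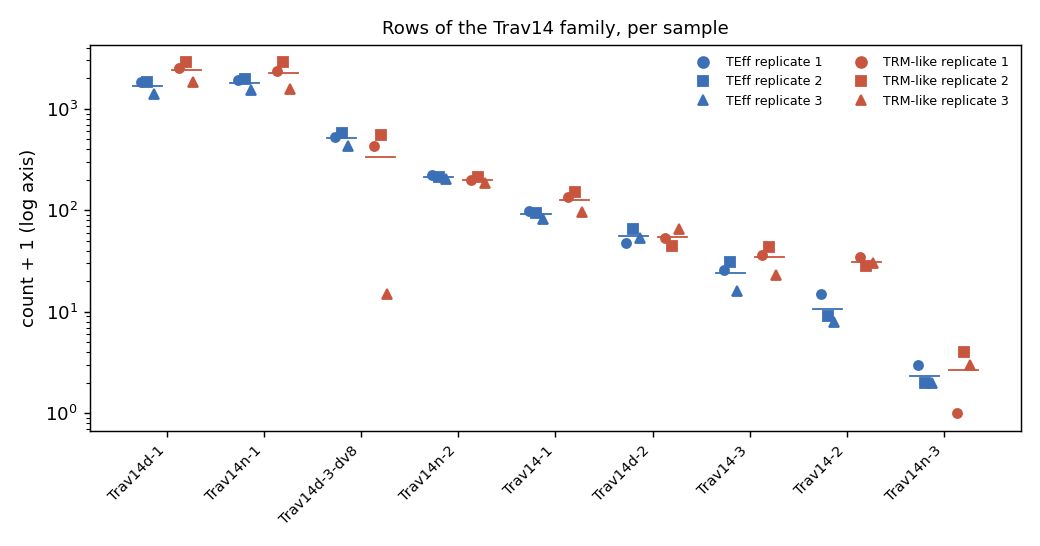
Counts plus 1 (log axis) of the 9 rows of the Trav14 family in every sample. Points are samples, and short lines are group means (n = 3). Trav14d-3-dv8 had 14 counts in TRM-like replicate 3 against 429 to 574 in the other 5 samples, and Trav14-2 was higher in all 3 TRM-like samples.

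Trav14-2 had 14, 8, and 7 counts in TEff and 34, 27, and 29 in TRM-like, with no overlap between groups, but it missed the threshold (log2 fold change 1.46 ± 0.34 SE; adjusted p = 0.0603, edgeR). The other Trav segments with the highest counts were 4 members of the Trav15 family, which can also join the δ locus, and Trav21-dv12. They split in direction. Trav15-2-dv6-2 had 122, 148, and 91 counts in TEff and 248, 264, and 220 in TRM-like (log2 fold change 0.84; adjusted p = 0.0523, edgeR), whereas Trav15-1-dv6-1 had 203, 189, and 121 in TEff and 107, 133, and 84 in TRM-like (log2 fold change -0.83; adjusted p = 0.0964, edgeR). Trav15d-1-dv6d-1 had 173, 157, and 110 counts in TEff and 84, 104, and 121 in TRM-like, and Trav15d-2-dv6d-2 had 118, 122, and 80 in TEff and 158, 148, and 134 in TRM-like. Trav21-dv12 stayed between 67 and 98 counts in every sample. No Trav segment of the 94 tested passed the threshold with all 6 samples. Without TRM-like replicate 3, Trav15-2-dv6-2, Trav14-2, and Trav7-6 passed as higher in TRM-like (adjusted p = 0.00769, 0.0210, and 0.0356, edgeR). Trav15d-1-dv6d-1 and Trav15-1-dv6-1 passed as lower in that fit (adjusted p = 0.0160 and 0.0388, edgeR). Summed over all Trav segments outside the Trav14 family, the level was 60.9, 70.9, and 55.1 CPM in TEff and 59.4, 62.8, and 54.9 CPM in TRM-like, and the groups overlapped.

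Trbv12-1, the transgenic β segment, held nearly all Trbv counts. It had 15925, 15494, and 12862 counts in TEff and 22234, 25220, and 12222 in TRM-like replicates 1, 2, and 3. Its level was 728, 784, and 711 CPM in TEff and 970, 1102, and 564 CPM in TRM-like, which did not pass the threshold (log2 fold change 0.25 ± 0.23 SE; adjusted p = 0.691, edgeR). Its share of the Trbv counts was 98.3%, 98.4%, and 98.4% in TEff and 99.7%, 99.8%, and 99.4% in TRM-like. The groups did not overlap on the share (98.4% ± 0.04 against 99.6% ± 0.2; SD, n = 3), and every TRM-like interval lay above every TEff interval, the nearest bounds being 98.6% and 99.2%. These intervals cover counting error only, not the spread between samples. The difference of 1.2 percentage points gave exact p = 0.10, the smallest this design allows (adjusted p = 0.20). Against all Trb counts the share was 21.5% to 22.5% in TEff and 24.3% to 25.5% in TRM-like.

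The higher share came with lower counts on the remaining 34 Trbv rows. Together they had 268, 248, and 211 counts in TEff and 62, 58, and 74 in TRM-like replicates 1, 2, and 3. In CPM this was 12.3, 12.6, and 11.7 in TEff and 2.70, 2.53, and 3.41 in TRM-like, a log2 ratio of -2.08 (exact p = 0.10, adjusted p = 0.20). All 3 TRM-like samples, replicate 3 included, were far below all 3 TEff samples. The ratio was -1.83 against TRM-like replicate 3 alone.

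Across all receptor segments, 9 of the 216 tested passed the threshold (4.17%), against 3.01% of all 26154 genes tested. The share among members was thus near that of all genes. Higher in TRM-like were 2 members (1.52% of all genes passed in that direction), and lower were 7 (1.48% of all genes). Of the 7 lower members, 6 were Trbv segments, from 17 Trbv rows tested besides Trbv12-1, and the seventh was Trbj2-2. The median log2 fold change was -1.55 over those 17 rows, -0.33 over the 216 members, and 0.02 over all genes tested. The number of members past the threshold was sensitive to the samples. It was 23 without TRM-like replicate 3 and from 1 to 3 when any other sample was left out. The number of all genes past the threshold also moved widely with the sample left out, as given below. These changes in the count are therefore not particular to the receptor segments.

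**Figure D4:**
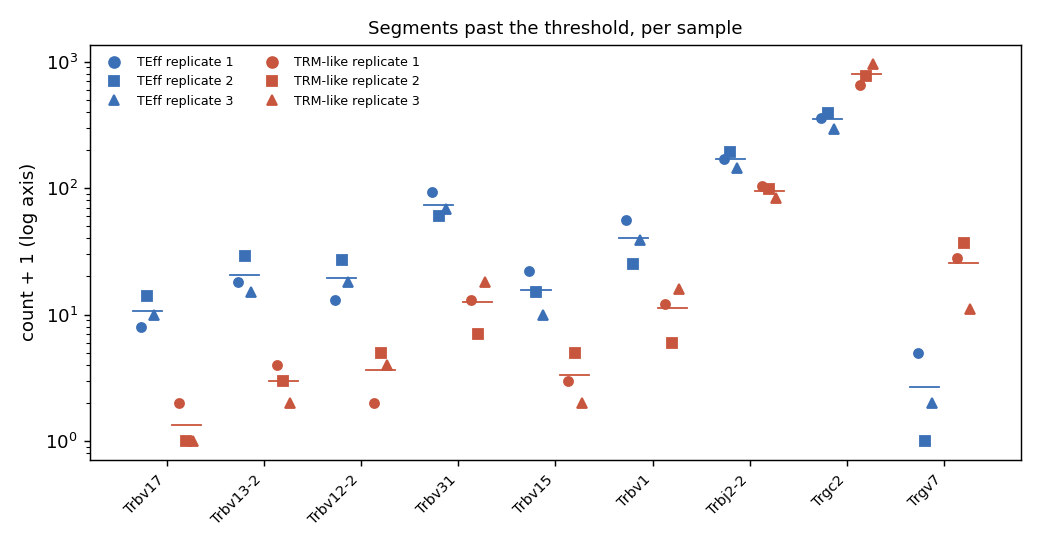
Counts plus 1 (log axis) in every sample for the 9 receptor segments past the threshold, ordered by log2 fold change. Points are samples, and short lines are group means (n = 3). No segment shown had overlapping groups, and most of the Trbv segments had fewer than 30 counts in any sample.

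Trbv31 had the smallest adjusted p of the members. It is the only Trbv segment on the far side of the constant segments and lies in the opposite orientation (chr6:41534627-41535386, minus strand), so that it joins by inversion. It had 92, 59, and 67 counts in TEff and 12, 6, and 17 in TRM-like replicates 1, 2, and 3. The groups did not overlap, and the log2 fold change was -2.79 ± 0.37 SE (adjusted p = 0.00458, edgeR). It passed the threshold in all 6 fits that left out 1 sample (adjusted p 0.000317 to 0.0406, edgeR). Its exons overlap a gene on the other strand in the later annotation used here, and the strand setting of the counting is not given in the sources used here.

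Trbv13-2 had 17, 28, and 14 counts in TEff and 3, 2, and 1 in TRM-like (log2 fold change -3.39 ± 0.54 SE; adjusted p = 0.0106, edgeR), and it passed in 4 of the 6 fits that left out 1 sample. It missed the threshold narrowly without TEff replicate 2 (adjusted p = 0.0540, edgeR) and without TRM-like replicate 2 (adjusted p = 0.0548, edgeR). Like Trbv31, it overlaps a gene on the other strand in the later annotation.

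The remaining 4 lower Trbv segments had larger adjusted p-values. Trbv12-2, the near copy of Trbv12-1 shown above, had 12, 26, and 17 counts in TEff and 1, 4, and 3 in TRM-like (log2 fold change -2.91 ± 0.57 SE; adjusted p = 0.0293, edgeR). Trbv15 had 21, 14, and 9 counts in TEff and 2, 4, and 1 in TRM-like (adjusted p = 0.0337, edgeR). Trbv17 had 7, 13, and 9 counts in TEff and 1, 0, and 0 in TRM-like (adjusted p = 0.0243, edgeR). Trbv1, the most upstream segment of the locus, had 55, 24, and 38 counts in TEff and 11, 5, and 15 in TRM-like (log2 fold change -2.06 ± 0.45 SE; adjusted p = 0.0453, edgeR). Each of these 4 had lower counts in every TRM-like sample than in any TEff sample. Each also lost its call when any sample other than TRM-like replicate 3 was left out (highest adjusted p 0.136, 0.191, 0.115, and 0.232 for Trbv12-2, Trbv15, Trbv17, and Trbv1, edgeR). Among Trbv rows with the highest counts, the pseudogene Trbv11 had 22, 15, and 9 counts in TEff and 12, 11, and 8 in TRM-like, and its groups overlapped.

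Counting the rows whose groups did not overlap gave a broader view. Of the 17 Trbv rows tested besides Trbv12-1, 9 were lower in every TRM-like sample and none were higher, against 9.71% of all genes tested that were lower in this sense and 10.6% that were higher. Without TRM-like replicate 3 the count was 10 of 17 (23.4% of all genes), and without TRM-like replicates 1 and 2 it was 11 of 17 (29.5% of all genes).

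Most J segments of the β locus had lower levels in every TRM-like sample than in any TEff sample, although 1 of 14 passed the threshold. J segments encode the end of the variable domain, and in αβ chains most contain a Phe-Gly motif that shapes the loop. The exons of Trbj1-1 (chr6:41510798-41510845), Trbj2-1 (chr6:41519688-41519737), Trbj2-2 (chr6:41519891-41519941), and Trbj2-7 (chr6:41520744-41520790), all on the plus strand of GRCm39, are shown as 3 of the most counted segments and the one past the threshold. Capitals mark the motif, searched on the coding strand as TTTGG or TTCGG followed by any 4 bases and GG, which 11 of 14 Trbj and 43 of 60 Traj exons held.
Trbj1-1: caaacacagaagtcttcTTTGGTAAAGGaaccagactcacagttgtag
Trbj2-1: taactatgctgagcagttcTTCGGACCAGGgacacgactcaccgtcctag
Trbj2-2: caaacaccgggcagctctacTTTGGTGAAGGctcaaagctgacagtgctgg
Trbj2-7: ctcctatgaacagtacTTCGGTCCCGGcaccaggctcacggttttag

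Summed over the 14 Trbj segments, the level was 219, 252, and 226 CPM in TEff and 188, 200, and 138 CPM in TRM-like replicates 1, 2, and 3. The groups did not overlap, and the log2 ratio was -0.41 (exact p = 0.10, adjusted p = 0.20). It was -0.76 against TRM-like replicate 3 alone. Of the 14 segments, 14 had a negative log2 fold change and 13 did not overlap between groups, against 9.71% of all genes tested. Trbj2-2 alone passed the threshold, with 168, 193, and 144 counts in TEff and 102, 98, and 82 in TRM-like (log2 fold change -1.02 ± 0.18 SE; adjusted p = 0.0196, edgeR). It lost the call when any sample other than TRM-like replicate 3 was left out (highest adjusted p 0.102, edgeR). In the fit without TRM-like replicate 3, Trbj1-7, Trbj2-3, Trbj2-4, Trbj2-5, and Trbj2-6 passed as well, all lower in TRM-like (adjusted p 0.0118 to 0.0450, edgeR).

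Trbj1-1 was the exception among the Trbj segments. It had 789, 849, and 683 counts in TEff and 996, 1078, and 543 in TRM-like replicates 1, 2, and 3, and its log2 fold change was -0.01 ± 0.22 SE (adjusted p = 0.980, edgeR). These values follow the order of Trbv12-1, with TRM-like replicates 1 and 2 highest and TRM-like replicate 3 lowest. Trbj2-1, by contrast, had 936, 782, and 749 counts in TEff and 749, 759, and 498 in TRM-like (adjusted p = 0.199, edgeR). Trbj1-2 had 559, 615, and 489 counts in TEff and 484, 581, and 394 in TRM-like, and Trbj1-5 had 432, 411, and 314 in TEff and 371, 311, and 248 in TRM-like, neither past the threshold. No Trbj segment dominated as Trbv12-1 did among V segments: Trbj1-1 took 16.4% to 23.5% of the Trbj counts, Trbj2-1 15.7% to 19.5%, and Trbj2-7 10.3% to 13.0%. J exons of 46 to 53 bases are shorter than a typical read, so their counts depend on how reads spanning several features were assigned, and no level per length is given. The exons of Trbj2-2 to Trbj2-7 overlap genes on the other strand in the later annotation.

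The α locus J segments were spread over many rows. Traj33 had the highest mean count over the 6 samples, with 196, 160, and 137 counts in TEff and 144, 149, and 154 in TRM-like, or 5.71% to 9.25% of the Traj counts. Traj58 had 103, 139, and 99 counts in TEff and 170, 192, and 80 in TRM-like replicates 1, 2, and 3, the same order as Trac, and exceeded Traj33 in TRM-like replicates 1 and 2. Traj49 had 120 to 140 counts in TEff and 66 to 123 in TRM-like, Traj45 had 59 to 78 and 57 to 74, and Traj41 had 43 to 63 and 56 to 65. Of the 60 Traj segments, 54 had a negative log2 fold change and none passed the threshold in either direction with all 6 samples. In 14 of the 60 the TRM-like samples were all below the TEff samples (23.3%, against 9.71% of all genes tested). Without TRM-like replicate 3, Traj59 passed as lower in TRM-like (adjusted p = 0.0497, edgeR). The Traj total was 107, 142, and 93.2 CPM in TEff and 103, 86.5, and 76.8 CPM in TRM-like, and the groups overlapped (exact p = 0.20, adjusted p = 0.32). The β locus D segments differed by less than the spread, Trbd1 having 446, 466, and 414 counts in TEff and 507, 572, and 385 in TRM-like.

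**Figure D5:**
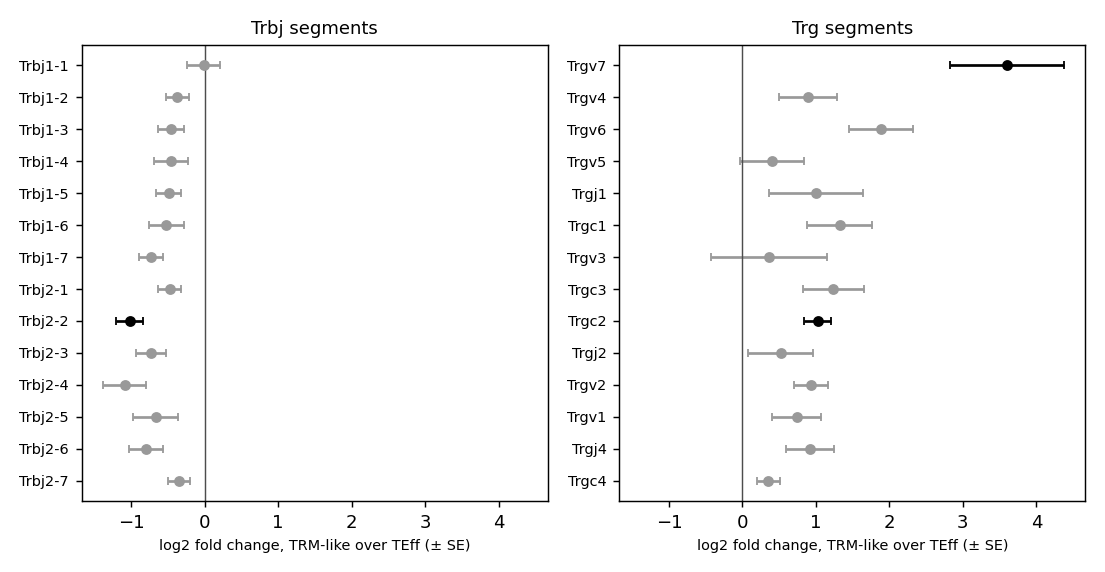
Log2 fold change of TRM-like over TEff with its standard error (edgeR) for the 14 Trbj segments (left) and the 14 tested Trg segments (right), in order along the chromosome. Black points passed the threshold. All 14 Trbj values were below 0, with Trbj1-1 at -0.01, and all 14 Trg values were above 0.

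The γ locus was higher in TRM-like samples. Its total was 43.2, 52.5, and 47.5 CPM in TEff and 70.4, 79.8, and 130 CPM in TRM-like replicates 1, 2, and 3. The groups did not overlap, and the log2 ratio of the means was 0.97 (exact p = 0.10, adjusted p = 0.20). Unlike Trac and Trbc, TRM-like replicate 3 was the highest here, and the log2 ratio was 1.44 against that sample alone. All 14 tested Trg rows had a positive log2 fold change, and 10 of the 14 did not overlap between groups, against 10.6% of all genes tested. Without TRM-like replicate 3 the count was 12 of 14 (25.0% of all genes), and without TRM-like replicates 1 and 2 it was also 12 of 14 (29.7% of all genes).

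Trgc2, a γ constant segment, had 358, 394, and 291 counts in TEff and 655, 766, and 964 in TRM-like, and it passed the threshold (log2 fold change 1.02 ± 0.19 SE; adjusted p = 0.0213, edgeR). The call was kept without TRM-like replicate 1 or 3 and lost without any of the other 4 samples (highest adjusted p 0.144, edgeR). Trgc1 had 152, 218, and 162 counts in TEff, 285 and 308 in TRM-like replicates 1 and 2, and 901 in TRM-like replicate 3, and it did not pass the threshold (log2 fold change 1.32 ± 0.44 SE; adjusted p = 0.196, edgeR). Trgc4 had 183 to 216 counts in TEff and 261 to 314 in TRM-like (adjusted p = 0.340, edgeR), and Trgc3 had 12 to 17 in TEff and 24 to 60 in TRM-like (adjusted p = 0.195, edgeR). All 4 constant segments had no overlap between groups.

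Among the γ V segments, Trgv7 passed the threshold on low counts. It had 4, 0, and 1 counts in TEff and 27, 36, and 10 in TRM-like (log2 fold change 3.60 ± 0.78 SE; adjusted p = 0.0442, edgeR), and it lost the call when any sample other than TRM-like replicate 3 was left out (highest adjusted p 0.203, edgeR). Trgv4, its neighbor, had 7, 6, and 5 counts in TEff and 12, 15, and 11 in TRM-like (adjusted p = 0.336, edgeR), and Trgv6, the next along the locus, had 7, 10, and 4 in TEff and 36, 35, and 18 in TRM-like (adjusted p = 0.0550, edgeR). For Trgv7 and Trgv6, TRM-like replicates 1 and 2, the samples with counts on many olfactory receptors, were highest, and the part of that in the result was not tested. Trgv2, the most counted γ V segment, had 108, 115, and 101 counts in TEff and 189, 201, and 306 in TRM-like (log2 fold change 0.93 ± 0.23 SE; adjusted p = 0.0789, edgeR). Without TRM-like replicate 3, both Trgv6 and Trgv2 passed the threshold (adjusted p = 0.00458 and 0.0147, edgeR). Trgv1 had 15 to 30 counts in TEff and 37 to 41 in TRM-like. Trgj1 had 10, 24, and 24 counts in TEff and 17, 28, and 87 in TRM-like, so TRM-like replicate 3 was highest for this J segment and for Trgc1, the constant segment next to it.

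Markers of γδ T cells outside the receptor loci did not move together. Sox13 had 32 to 68 counts in TEff and 56, 53, and 15 in TRM-like replicates 1, 2, and 3. Blk had 26 to 28 in TEff and 47, 46, and 14 in TRM-like. Maf, which other T cells also express, had 25 to 32 counts in TEff and 294, 282, and 134 in TRM-like. Thus TRM-like replicate 3, with the highest Trgc1, had the lowest Sox13 and Blk. The summed level of the 7 γδ markers found was 184 to 245 CPM in TEff and 202 to 232 CPM in TRM-like, with none at 0, and most of it was Trdc.

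The δ locus did not follow the γ locus. Its total was 165, 225, and 167 CPM in TEff and 149, 167, and 139 CPM in TRM-like, with a log2 ratio of -0.29 (exact p = 0.20, adjusted p = 0.32). The groups overlapped, TEff replicate 2 being the highest. Trdc, the δ constant segment, had 3194, 3917, and 2728 counts in TEff and 3028, 3431, and 2697 in TRM-like (log2 fold change -0.29 ± 0.16 SE; adjusted p = 0.479, edgeR), and at 37.8 to 51.3 CPM per kb in TEff and 32.2 to 38.8 in TRM-like it was far below Trac on that scale. Its exons overlap Trdv5 and another gene on the other strand. The leading δ V and J segments were low: Trdv1 had 52 to 95 counts in TEff and 51 to 82 in TRM-like, Trdj1 had 65 to 138 and 81 to 95, and Trdj2 had 63 to 99 and 72 to 86. No Trd row passed the threshold.

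Genes of receptor assembly, the CD3 chains, and the coreceptors were examined as a list of 11. Of the 8 that were tested, 1 passed the threshold, against 3.01% of all genes tested. This was Cd8a, the coreceptor chain that binds MHC class I, with 9591, 8847, and 7627 counts in TEff and 21250, 22259, and 21456 in TRM-like (log2 fold change 1.14 ± 0.13 SE; adjusted p = 0.00219, edgeR). All 3 TRM-like samples were close together and above TEff. Cd8b1, its partner, gave 0.50 ± 0.13 (adjusted p = 0.0880, edgeR).

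Of the CD3 chains that signal for the receptor, Cd3g had 11208, 10613, and 9382 counts in TEff and 24315, 26691, and 11242 in TRM-like replicates 1, 2, and 3 (log2 fold change 0.81 ± 0.27 SE; adjusted p = 0.194, edgeR). Cd3d gave 0.34 ± 0.23 (adjusted p = 0.558, edgeR), with 11637, 13400, and 6509 counts in TRM-like replicates 1, 2, and 3. As for Trac, Trbc2, and Trbv12-1, TRM-like replicates 1 and 2 were the highest for both chains. For Cd3d, TRM-like replicate 3 was the lowest of all samples, at 300 CPM against 356 to 381 CPM in TEff. For Cd3g it lay within the TEff range, at 518 CPM against 512 to 537 CPM. Cd3e and Cd247 gave 0.10 ± 0.14 and -0.13 ± 0.14, within the spread. Dntt, the enzyme that adds bases at V(D)J junctions, had 29, 40, and 23 counts in TEff and 15, 6, and 8 in TRM-like (log2 fold change -1.83 ± 0.41 SE; adjusted p = 0.0509, edgeR), just short of the threshold. Cd4, at no more than 2 counts in any sample, gave no call, and Rag1, Rag2, and Ptcra had too few counts to test.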

How the data were processed

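Stranded total RNA libraries of 3 TEff and 3 TRM-like samples were analyzed, grouped by their labels. The authors trimmed reads (Cutadapt 4.8), aligned and counted them with Rsubread on GRCm39, and deposited the raw counts and gene lengths. The submitters' notes also list DESeq2 (1.40.2). Strand setting and the handling of multimapping reads are not given in the sources used here. Of 57126 rows, 56620 found a symbol in the GENCODE vM39 annotation of this build. Members and gene lists were chosen with earlier results of these data known.

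The 26154 genes with a nonzero count in 3 or more samples were tested with edgeR (4.0.16) in R (4.3.3), using TMM scaling, the quasi-likelihood test, and Benjamini-Hochberg adjustment over all genes. In simulated counts for the TRM-like against TEff comparison, 200 of 25316 genes were changed 4-fold. Of the changed genes 95% were recovered, and 4.04% of the calls were false. The changed genes were drawn above a floor in mean CPM, so this recovery does not cover segments with few counts. Shares and sums were compared by exact two-sided permutation tests adjusted over 16 quantities, and Wilson 95% intervals cover counting error only. Total counts were 18319013 to 23622621. Segments named were all C segments, the transgenic segments with Trbv12-2, the most counted of each class, and those past the threshold. Genes of receptor assembly, the CD3 chains, and the coreceptors were also named. Trgv4, Trgv6, and Trbd1 were added after their values were seen. A batch that the authors' methods mention is not in the labels and was not modeled. The alternatives were DESeq2 (1.42.0), other scalings and filters, a replicate block, and leaving out samples.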

Additional observations from a re-analysis of the deposited data

How the results depend on the processing

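Of 437 alternative values, 345 kept their direction and side of the threshold, or moved by less than 1 SD. Another 16 reversed direction, 41 no longer passed the threshold, 11 newly passed it, and 24 moved by more than 1 SD (a count by over 1.5 times). For shares and sums, no exact test could reach p below 0.05 with these sample numbers. Where they were tested, only a reversed direction could take them out of the 345, so this tally does not measure their stability. The number of members past the threshold, 9, was 18 with DESeq2, 23 with no filter on low counts, 3 with at least 10 counts required in every sample (111 members tested), and 1 to 23 with 1 sample left out. All genes past the threshold numbered 786, against 1256 with DESeq2, 1868 with no filter, and 263 to 3389 with 1 sample left out. The replicate block gave 28 members, 2034 genes, and a Trb log2 ratio of -0.0014. Samples of the same number had correlations of deviations of -0.36, 0.37, and 0.44 for replicates 1, 2, and 3. Samples of different numbers had -0.54 to 0.57, so the numbers gave no clear pairing. Leaving out TRM-like replicates 1 and 2, chosen after seeing the data, moved the difference in the Trav14 share to -1.8 percentage points. It moved the difference in the Trbv12-1 share to 1.0, and the log2 ratios to -0.38 (Tra), -0.54 (Trb), and 1.44 (Trg). Leaving them out also turned the log2 fold changes to -0.40 (Trbv12-1), -0.56 (Trbc2), and -0.39 (Trac). Without the constant segments the Tra ratio was -0.033.

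With 1 sample left out, log2 ratios were -0.094 to 0.22 for Tra, -0.14 to 0.27 for Trb, -0.051 to 0.31 for the Trav14 family, and -0.16 to 0.026 for the other Trav segments, and log2 fold changes were -0.29 to 0.13 for Trbc1, -0.13 to 0.30 for Trbc2, and -0.051 to 0.34 for Trac. With 2 samples in a group the exact test cannot pass 0.05, so its p-values there say nothing of stability. J and V segments with few counts limit the precision.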

Other observations

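The low count of Trav14d-3-dv8 in TRM-like replicate 3 was compared with all genes, after its value was seen. Among the 10131 genes with more than 100 counts in each of the other 5 samples, TRM-like replicate 3 had 14 counts of Trav14d-3-dv8, 3.26% of the lowest of the other samples, and only 1 gene had a smaller ratio. That gene was Klrb1c, a lectin-like receptor of NK cells and some T cells, with 214, 433, and 214 counts in TEff, 196 and 153 in TRM-like replicates 1 and 2, and 2 in TRM-like replicate 3. The next was Gzmc, which encodes granzyme C, with 3161, 4455, and 3156 counts in TEff, 6406 and 5915 in TRM-like replicates 1 and 2, and 205 in TRM-like replicate 3. It was followed by Chl1, an adhesion molecule, at 9 counts against 102 or more in each other sample.

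The immunoglobulin V, D, and J segments, which T cells do not rearrange into antibodies, gave a comparison for the receptor segments. Their 380 rows had 713, 800, and 513 counts in TEff and 992, 940, and 761 in TRM-like replicates 1, 2, and 3. They were detected on 28 to 35 rows in TEff and TRM-like replicate 3, and on 85 and 83 rows in TRM-like replicates 1 and 2. Per kilobase of exon this was 0.238 to 0.340 CPM per kb in TEff and 0.294 to 0.363 CPM per kb in TRM-like. On the same scale the Trbv rows other than Trbv12-1 stood at 0.959 to 1.03 CPM per kb in TEff and 0.208 to 0.281 CPM per kb in TRM-like. The TRM-like level of these Trbv rows was thus below that of the immunoglobulin segments in the same samples, and the TEff level was above it. Olfactory receptor rows stood lower, at 0.00324 to 0.00499 CPM per kb in TEff and 0.00231 to 0.0255 in TRM-like. Vomeronasal receptor rows stood at 0.00480 to 0.00684 CPM per kb in TEff and 0.00731 to 0.0369 in TRM-like. Against these other lists, the Trbv rows were higher in every sample of either group. The Trgv rows stood at 2.59 to 3.19 CPM per kb in TEff and 5.24 to 6.72 CPM per kb in TRM-like, above the immunoglobulin segments in every sample.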
